A study of Mus musculus with 5 samples.

Results

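Imprinted growth-regulating genes are a small group of mammalian genes that are read mainly from one parental copy and that set the size of the embryo and its organs. A total of 10 such genes were chosen by symbol (Dlk1, Meg3, H19, Igf2, Igf2r, Peg3, Mest, Plagl1, Grb10 and Ndn). All 10 had a row among the 12370 gene symbols of the count table and all 10 passed the filter on low counts, which left 12035 genes to test. They were followed in RNA sequencing of lenses from mouse embryos at embryonic day 14. The 2 N-myc knockout libraries were made from Mlr10-Cre+/-; N-myc loxP/loxP embryos, in which the Mlr10-Cre transgene drives Cre recombinase in lens cells. The 3 control libraries were made from embryos without Cre whose N-myc was loxP-flanked, with or without loxP-flanked c-myc, and the labels do not assign these genotypes to single libraries. All 5 libraries thus share loxP-flanked N-myc. Lens lysates of single animals were pooled before the RNA was purified, and the labels give no number of animals per pool. The transgene was present in each knockout library and absent from each control library, so effects of Cre cannot be told apart from effects of the deletion in any result below.

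In most imprinted genes a methylated control region, set in the germ line, silences the copy from one parent. Genes read from the paternal copy (here Dlk1, Igf2, Peg3, Mest, Plagl1 and Ndn) often promote growth, and genes read from the maternal copy (here Meg3, H19, Igf2r and Grb10) often restrain it or are noncoding RNAs of the same domains. Counts per gene do not separate the parental copies, so the values below are the sum of both. Many of these genes are abundant in embryonic tissues, mesenchyme and muscle in particular, and their levels decline after birth.

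In knockout lenses 4 of the 10 genes were higher than in control lenses, and 0 were lower, by edgeR's quasi-likelihood test at an adjusted p under 0.05 over all genes tested. Plagl1, a zinc-finger transcription factor, was 2.30-fold higher and Igf2r, the receptor that clears insulin-like growth factor 2, was 1.45-fold higher, each in both knockout libraries. Meg3, a noncoding RNA, and Dlk1, a transmembrane ligand-like protein, were also called higher. For Dlk1 the difference was carried by knockout replicate 1, and Meg3 was 2.44-fold above the control mean in that library and 1.27-fold above it in the other. Igf2, H19, Grb10, Peg3, Mest and Ndn did not pass the test. Of all genes tested, 7.98% were called higher and 8.51% lower (960 and 1024 genes, 1511 and 637 when scaled by library totals, and 354 and 896 without the trends on length and GC content, that is, after a smooth trend of counts on transcript length and GC content was taken out of each library), and the 4 higher calls among 10 genes are to be read beside those shares. The median log2 fold change was 0.23 over the 10 genes and 0.00 over all genes tested. In 7 of the 10 genes the knockout and control libraries did not overlap, 6 with knockout above control and H19 with knockout below, against 52.5% of all genes tested with no overlap in either direction. At an unadjusted p under 0.05 edgeR had 5 of the 10 genes higher and 1 lower, against 18.2% and 17.6% of all genes tested.

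**Figure D1:**
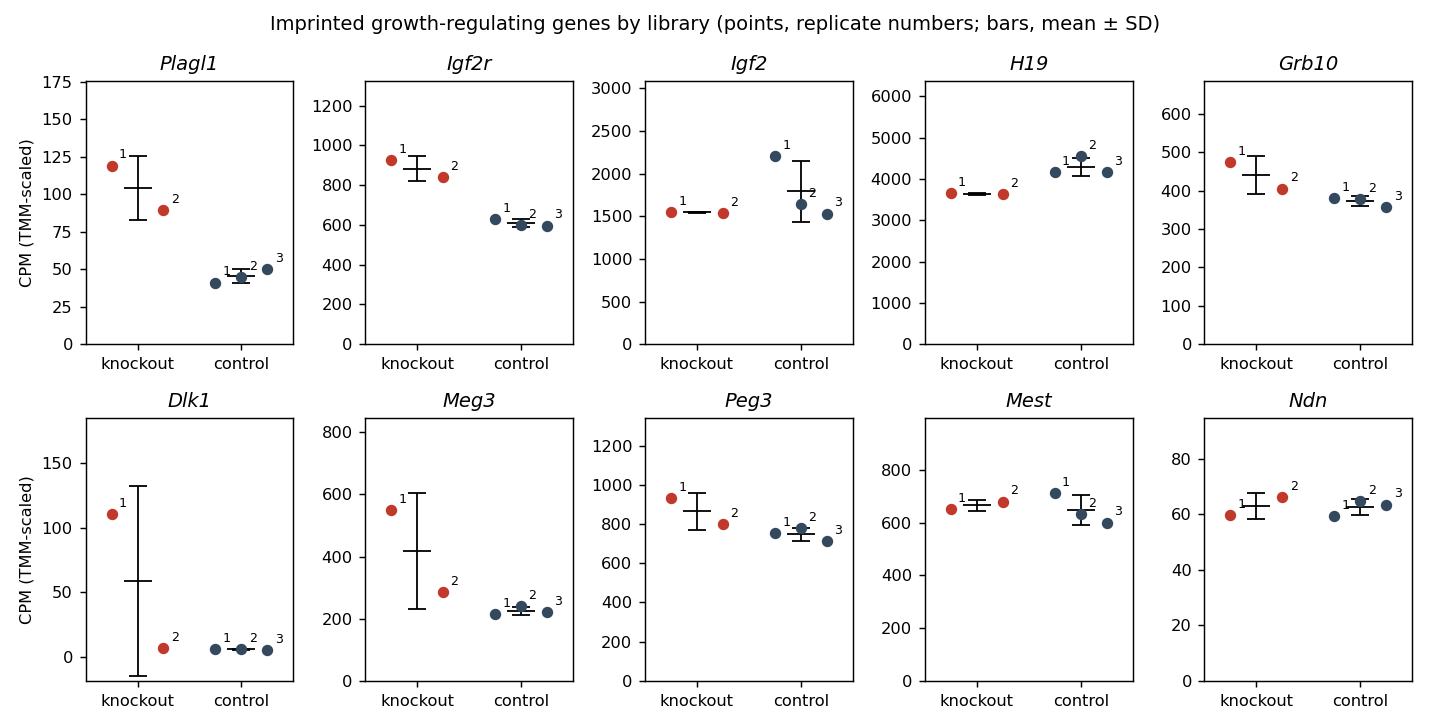
Scaled counts (CPM, vertical axes, starting at 0 except for Dlk1, where the error bar passes below 0) of the 10 genes in 2 knockout (red) and 3 control (dark) libraries. Points are libraries with their replicate number, and bars are mean ± SD. Plagl1 and Igf2r are higher in both knockout libraries, and Dlk1 is high in knockout replicate 1 alone.

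The libraries summed to between 13162384 and 13746416 counts. Mycn, the gene for N-myc, was at 57.3 and 81.9 CPM (counts scaled to a library of 1e+06) in knockout replicates 1 and 2, against 162, 148 and 140.3 CPM in control replicates 1 to 3 (log2 fold change -1.11, SE 0.15, edgeR adjusted p = 0.0097). All 18 listed lens identity genes, crystallins, fibre membrane proteins and lens transcription factors, had counts in all 5 libraries. They took 10.4% and 11.8% of the counts in the knockouts, against 10.7% to 13.2% in the controls. In knockout lenses edgeR called 0 of the 18 higher and 7 lower, against 7.98% and 8.51% of all genes tested. Knockout replicate 1 stood apart in genes of other tissues. Of 24 listed genes of periocular mesenchyme, the connective tissue around the eye, 21 were analysed. Their summed level was 3584 CPM in knockout replicate 1 and 1102 CPM in knockout replicate 2, against 841 to 1183 CPM in the controls, and 20 of the 21 were highest in knockout replicate 1. Of 12 listed skeletal muscle genes 11 were analysed, with sums of 432 and 18.8 CPM in knockout replicates 1 and 2, against 13.5 to 60.6 CPM in the controls, and all 11 were highest in knockout replicate 1. The retina and early neuron list (15 of 16 genes) summed to 372 and 525 CPM in knockout replicates 1 and 2, against 195 to 309 CPM in the controls. None of the genes analysed in these 3 lists was at 0 in any library. Among them edgeR called 10 of 21 tested mesenchyme genes, 0 of 8 tested muscle genes and 9 of 15 tested retina genes higher. It called 0 lower in each of the 3 lists, beside the same shares of all genes. Retinal pigment epithelium (2 of 7 genes analysed) summed to 30.1 and 39.2 CPM in the knockouts, against 38.6 to 48.8 CPM in the controls, and endothelium (10 of 10) to 273 and 281 CPM, against 268 to 311 CPM. Red blood cell genes (10 of 12, with 5 at 0 in at least 1 library) summed to 98.5 and 96.9 CPM, against 145 to 179 CPM, macrophage genes (9 of 10) to 53.7 and 56.3 CPM, against 26.7 to 49.8 CPM, and chondrocyte and surface ectoderm genes (5 of 9) to 61.2 and 78.0 CPM, against 20.4 to 33.0 CPM. Fewer cells of a type and less RNA per cell cannot be told apart in such bulk samples.

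**Figure D2:**
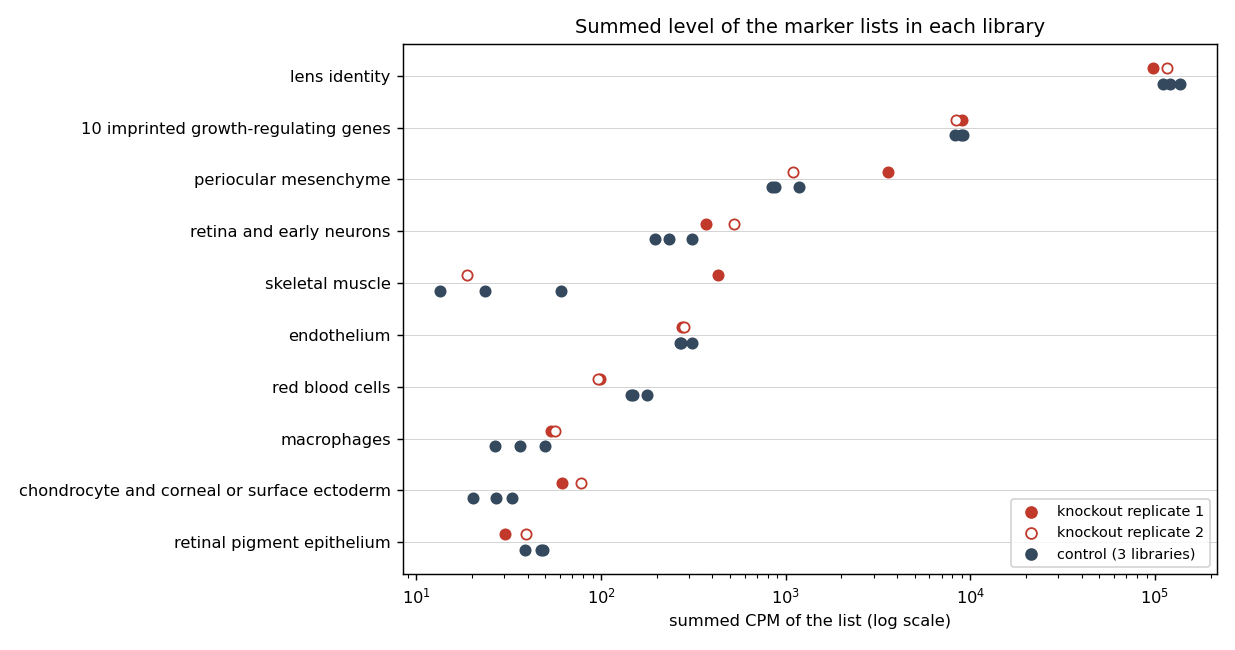
Summed CPM (horizontal axis, log scale) of marker lists and of the 10 imprinted genes in each library, knockout in the upper row of each list and control in the lower. Mesenchyme and muscle lists are highest in knockout replicate 1 (3584 and 432 CPM), and the 10 imprinted genes sum to 9027 and 8339 CPM in the knockouts, against 8299 to 9162 CPM in the controls.

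The 10 genes together took 0.954% and 0.846% of the counts in knockout replicates 1 and 2, against 0.828% to 0.888% in the controls. Levels of different genes were compared per kilobase of the longest annotated transcript. H19 was the most abundant, with 1592 ± 7.08 CPM per kilobase in knockout lenses (SD, n = 2) and 1876 ± 99.4 in control lenses (SD, n = 3), where it ranked 19 of 11804 genes with a known length. Igf2 followed with 327 and 380 CPM per kilobase in knockout and control lenses, and Mest with 249.5 and 243. Igf2 and Mest did not overlap across the control libraries. Peg3, Grb10 and Igf2r formed a middle group, with 99.5, 87.0 and 99.4 CPM per kilobase in knockout lenses and 86.1, 73.6 and 68.5 in control lenses. Grb10 and Igf2r overlapped across the control libraries, and so did Ndn and Meg3 (17.1 and 28.7 CPM per kilobase in knockout lenses, 17.0 and 15.5 in control lenses). Plagl1 had 19.8 CPM per kilobase in knockout lenses against 8.62 in control lenses. Dlk1, the lowest by group means, had 12.6 ± 15.7 (SD, n = 2) against 1.36. Its knockout mean was carried by knockout replicate 1, with 110.4 CPM against 6.96 CPM in knockout replicate 2.

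Plagl1 (also known as Zac1) encodes a zinc-finger transcription factor that arrests the cell cycle and, in mouse, acts on other imprinted genes. It lies on chromosome 10 (13060504 to 13131694, plus strand, GRCm38). Its level was 119 and 89.2 CPM in knockout replicates 1 and 2, against 41.1, 44.8 and 50.1 CPM in control replicates 1 to 3. Both knockout libraries lay well above the highest control, replicate 1 by more. The means were 104 ± 21.1 CPM in knockout lenses (SD, n = 2) and 45.3 ± 4.53 CPM in control lenses (SD, n = 3), and the log2 fold change was 1.20 (SE 0.14, edgeR adjusted p = 0.0068). Plagl1 passed in 12 of 13 alternatives (adjusted p from 1.2e-11 to 0.052) and missed the threshold without control replicate 2, where its log2 fold change was 1.20. Without knockout replicate 1 it was 0.98 (adjusted p = 0.0088), a fit in which 2.42% of all genes tested were called and Plagl1 was the 1 gene of the 10. The retina sum was above the control range in both knockout libraries, and 12 of the 15 retina genes were above all controls in both. The mesenchyme sum of knockout replicate 2 was within the control range, but 9 of the 21 mesenchyme genes were above all controls in both knockout libraries. Over all genes tested, 52.5% had no overlap between the groups in either direction. The part of retina and mesenchyme RNA in the Plagl1 difference was not tested.

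Igf2r encodes the cation-independent mannose 6-phosphate receptor, which carries lysosomal enzymes and, in mammals, binds insulin-like growth factor 2 and delivers it to lysosomes. It lies on chromosome 17 (12682406 to 12769664, minus strand, GRCm38). Igf2r stood at 927 and 839 CPM in knockout replicates 1 and 2, against 631, 598 and 596 CPM in control replicates 1 to 3. Each knockout library was clear of the controls, which lay close together. The log2 fold change was 0.54 (SE 0.090, edgeR adjusted p = 0.014), with 883 ± 62.6 CPM in knockout and 608 ± 19.6 CPM in control lenses (SD, n = 2 and 3). It did not pass without knockout replicate 1 (0.47, adjusted p = 0.074), control replicate 2 (0.54, 0.07) or control replicate 3 (0.53, 0.057). Without the trends on length and GC content, its log2 fold change was 0.23 (adjusted p = 0.093), in a fit that called 10.4% of all genes tested and kept Plagl1 (1.17, adjusted p = 0.0033) as the 1 gene of the 10 called higher. Airn, the paternally read antisense RNA that silences Igf2r in the mouse, covers 28354 of the 87259 bases of Igf2r on the opposite strand. Airn was at 44.9 CPM in knockout replicate 1 and 29.3 CPM in knockout replicate 2, against 22.7, 25.6 and 25.4 CPM in the controls (log2 fold change 0.59, SE 0.17, edgeR adjusted p = 0.051). Without knockout replicate 1 the log2 fold change of Airn was 0.26. It was called higher in 5 of 13 alternatives, among them DESeq2 (0.60, adjusted p = 0.024) and edgeR without the trends on length and GC content (0.83, adjusted p = 0.031). Whether counting used strand is not stated in the labels, so reads of Igf2r and Airn cannot be told apart where they overlap.

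The promoters of the 4 genes called higher are shown because N-myc and its partner Max bind, as a dimer, the E-box letters CACGTG. Each window holds 250 bases before and 50 bases after the annotated start (RefSeq, GRCm38.p6), in lower case, with CACGTG in capitals. The motif reads the same on both strands.
Plagl1, chr10:13090582-13090881, plus strand: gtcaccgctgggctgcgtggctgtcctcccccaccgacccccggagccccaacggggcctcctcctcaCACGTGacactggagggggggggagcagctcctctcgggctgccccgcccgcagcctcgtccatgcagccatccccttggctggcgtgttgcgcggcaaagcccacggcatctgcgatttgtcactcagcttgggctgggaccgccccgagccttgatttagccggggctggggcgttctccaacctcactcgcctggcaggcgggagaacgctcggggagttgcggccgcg
Igf2r, chr17:12769657-12769956, minus strand: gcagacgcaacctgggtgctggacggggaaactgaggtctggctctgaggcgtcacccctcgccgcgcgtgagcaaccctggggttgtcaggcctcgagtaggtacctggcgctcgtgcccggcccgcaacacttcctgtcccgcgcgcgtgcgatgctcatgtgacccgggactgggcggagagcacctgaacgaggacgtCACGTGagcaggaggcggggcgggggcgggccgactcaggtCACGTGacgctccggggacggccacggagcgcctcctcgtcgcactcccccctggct
Dlk1, chr12:109452573-109452872, plus strand: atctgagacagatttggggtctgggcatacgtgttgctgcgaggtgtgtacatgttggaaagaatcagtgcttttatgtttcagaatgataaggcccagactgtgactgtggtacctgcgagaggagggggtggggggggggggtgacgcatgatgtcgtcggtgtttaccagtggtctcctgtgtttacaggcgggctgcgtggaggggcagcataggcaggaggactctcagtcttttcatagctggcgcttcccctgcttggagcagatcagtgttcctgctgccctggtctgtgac
Meg3, chr12:109540746-109541045, plus strand, the first of 2 listed starts: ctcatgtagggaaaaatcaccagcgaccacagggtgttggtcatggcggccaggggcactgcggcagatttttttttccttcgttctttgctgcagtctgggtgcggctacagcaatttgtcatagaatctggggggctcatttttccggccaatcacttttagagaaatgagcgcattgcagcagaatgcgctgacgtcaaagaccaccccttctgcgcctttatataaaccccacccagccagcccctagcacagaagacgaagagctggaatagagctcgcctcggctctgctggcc
The Plagl1 window held 1 CACGTG, beginning 182 bases before the start, and the Igf2r window held 2, beginning 48 and 7 bases before it. None was found in the windows of Dlk1 and Meg3, nor in those of Igf2, Peg3, Mest, Grb10 and Ndn. In all, 16 windows were listed for 9 of the 10 genes, and H19 had no entry. Of these 16 windows, 2 (12.5%) held CACGTG. Of all 32851 promoter windows of this length, 7.15% held CACGTG and 0.594% held it at least 2 times. Of the 11961 windows of tested genes, 10.02% held it and 1.06% held it at least 2 times. The windows of Plagl1 and Igf2r each had a GC content of 70.7% and held 26 and 34 CG pairs, against 9 and 13 in those of Dlk1 and Meg3. The first listed Grb10 window, without CACGTG, held 45 CG pairs at a GC content of 80%. The median over the windows of tested genes was 21 CG pairs. These matches describe the letters, and binding was not measured.

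Igf2 encodes insulin-like growth factor 2, the main fetal growth factor of the family, and H19 is the maternally read noncoding RNA of the same domain on chromosome 7, where both are driven by shared enhancers. Igf2 spans 142650766 to 142666816 and H19 spans 142575529 to 142578143, both on the minus strand (GRCm38), with a gap of 72.6 kilobases. H19 was at 3652 CPM in knockout replicate 1 and 3629 CPM in knockout replicate 2, against 4157, 4551 and 4157 CPM in control replicates 1 to 3. The knockout libraries were nearly equal and both lay below the lowest control. The log2 fold change of -0.24 (SE 0.092) did not pass the test (edgeR adjusted p = 0.11). DESeq2 called H19 lower (-0.23, adjusted p = 0.016), and so did edgeR without the trends on length and GC content (-0.40, adjusted p = 0.026). Igf2 was at 1552 CPM in knockout replicate 1 and 1539.8 CPM in knockout replicate 2, against 2205, 1641 and 1533 CPM in control replicates 1 to 3. The groups overlapped, and control replicate 1 was the high library. The difference for Igf2 was -0.21 on the log2 scale (SE 0.15, edgeR adjusted p = 0.35), -0.03 without control replicate 1, and -0.58 (adjusted p = 0.033) without the trends on length and GC content. The longest transcripts of H19 and Igf2 had a GC content of 55.8% each, above 81.3% and 81.4% of the tested genes. Igf2os, an antisense gene that overlaps Igf2, had 9.16 and 7.82 CPM in knockout replicates 1 and 2, against 8.78, 6.68 and 5.54 CPM in the controls.

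Grb10 encodes an adaptor that binds the insulin and insulin-like growth factor receptors and dampens their signal (chromosome 11, 11930508 to 12038683, minus strand, GRCm38). It was at 475 CPM in knockout replicate 1 and 406 CPM in knockout replicate 2, against 381, 378 and 358 CPM in control replicates 1 to 3. Both knockout libraries lay above the controls, replicate 2 only narrowly. The log2 fold change of 0.24 (SE 0.096) did not pass (edgeR adjusted p = 0.11, from 0.051 to 0.61 over 13 alternatives). The insulin-like growth factor axis was a list of ligands, receptors, binding proteins and signalling genes, with regulators of fetal growth such as Lin28b and Hmga2. Among its 31 tested genes 1 was higher and 3 were lower in knockout lenses, against 7.98% and 8.51% of all genes tested. At an unadjusted p under 0.05 the numbers were 10 and 8 of 31, against 18.2% higher and 17.6% lower over all genes, and the list's median log2 fold change was 0.10. Irs2, an adaptor of the insulin and growth factor receptors, rose 1.62-fold, with 53.4 and 53.1 CPM in the knockouts, against 27.4 to 39.3 CPM in the controls (log2 fold change 0.69, SE 0.14, edgeR adjusted p = 0.023). Shc1, another receptor adaptor, fell 1.38-fold (168 and 193 CPM in the knockouts, against 225 to 262 CPM, edgeR adjusted p = 0.028). Lin28b, an RNA-binding protein of fetal growth, fell 1.36-fold (55.6 and 68.8 CPM, against 76.2 to 93.0 CPM, edgeR adjusted p = 0.044). Hmga2, a chromatin protein of fetal growth, fell 1.23-fold (270.2 and 273 CPM, against 318 to 351 CPM, edgeR adjusted p = 0.046). Igf1, another growth factor of the family, was at 42.7 CPM in knockout replicate 1 and 5.38 CPM in knockout replicate 2, against 5.24 to 6.22 CPM in the controls, and did not pass (edgeR adjusted p = 0.063). Without the trends on length and GC content Shc1 was still called (-0.63, edgeR adjusted p = 0.014), but Irs2 (0.28, 0.16), Lin28b (-0.27, 0.21) and Hmga2 (-0.23, 0.11) were not.

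Dlk1 and Meg3 lie 77.7 kilobases apart in an imprinted domain on chromosome 12, at 109452823 to 109463336 and at 109541001 to 109571726, both on the plus strand (GRCm38). Dlk1 encodes a Notch-ligand-like protein that holds back differentiation of precursor cells, and Meg3 is the noncoding RNA read from the maternal copy. Dlk1 was at 110.4 CPM in knockout replicate 1 and 6.96 CPM in knockout replicate 2, against 6.66, 6.53 and 5.84 CPM in control replicates 1 to 3. Knockout replicate 1 was 17.4-fold above the control mean and replicate 2 was 1.10-fold above it, so that the groups did not overlap although the second value lay beside the controls. The fitted log2 fold change was 3.21 (SE 0.86, edgeR adjusted p = 0.043), and it was 0.14 (adjusted p = 0.79) without knockout replicate 1. The edgeR adjusted p was 0.10 to 0.13 without any one control library, and 0.063 without the trends on length and GC content. Meg3 was at 549.9 CPM in knockout replicate 1 and 285 CPM in knockout replicate 2, against 215, 239.5 and 222 CPM in the controls. Both knockout libraries were above all controls, and replicate 1 was 1.93-fold above replicate 2. Its log2 fold change was 0.89 (SE 0.23, edgeR adjusted p = 0.038), and 0.34 (adjusted p = 0.14) without knockout replicate 1. Meg3 passed in 4 of 13 alternatives, and did not pass with DESeq2 (adjusted p = 0.051), with limma-voom (0.052) or without any one control library (0.087 to 0.11).

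In 3 other genes of the chromosome 12 domain knockout replicate 1 was again the highest library, and knockout replicate 2 lay within the control range. Rian, a noncoding RNA 32.2 kilobases beyond Meg3, was at 225 CPM in knockout replicate 1 and 118 CPM in knockout replicate 2, against 116, 126 and 125 CPM in the controls. Mirg, a host of microRNAs, was at 13.5 CPM in knockout replicate 1 and 5.88 CPM in knockout replicate 2, against 5.09 to 6.75 CPM in the controls. Rtl1, a retrotransposon-derived gene read from the paternal copy, had 94 and 4 counts in knockout replicates 1 and 2, against 3, 2 and 10 counts in the controls. None of these 3 passed edgeR's test (adjusted p = 0.16, 0.14 and 0.08). Without knockout replicate 1 the log2 fold change of Rian was -0.060, that of Mirg 0.03 and that of Rtl1 -0.40. The mesenchyme sum of knockout replicate 1 was 3584 CPM and its muscle sum 432 CPM, both above all other libraries, and the part of these tissues in the domain's values was not tested. Between the knockout libraries, Dlk1 differed 14.9-fold, a size that 0.166% of tested genes exceeded, and Meg3 1.93-fold, exceeded by 3.55%. Plagl1 differed 1.33-fold and Igf2r 1.11-fold, ranks 1932 and 6549 of 12035 by size of the difference.

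**Figure D3:**
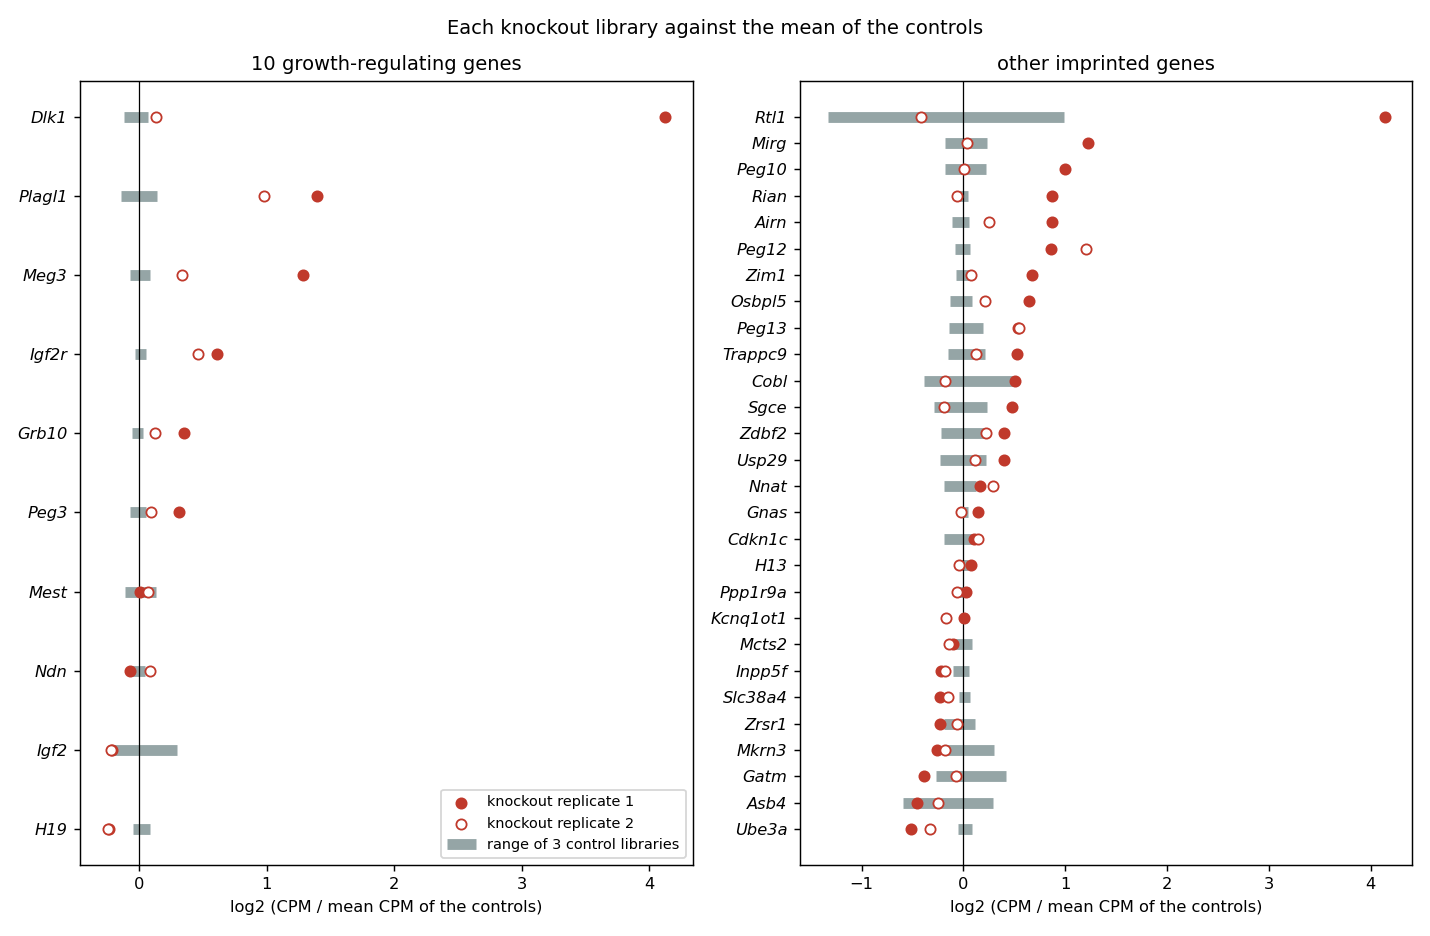
Log2 of each knockout library's CPM over the control mean (horizontal axes) for the 10 genes (left) and for the other tested imprinted genes (right). Filled and open circles are knockout replicates 1 and 2, and grey bars span the 3 control libraries. Dlk1, Rtl1, Rian, Mirg and Peg10 are high in knockout replicate 1 alone, and Plagl1, Igf2r, Peg12 and Peg13 in both.

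Peg3, a zinc-finger protein tied to maternal care and fetal growth, was at 931 CPM in knockout replicate 1 and 799 CPM in knockout replicate 2, against 753, 779.5 and 714 CPM in control replicates 1 to 3. Both knockout values exceeded the highest control, replicate 2 by a small margin, and the log2 fold change of 0.21 (SE 0.10) did not pass (edgeR adjusted p = 0.18). Mest, a hydrolase-like protein of embryonic mesoderm, was at 650.5 CPM in knockout replicate 1 and 679 CPM in knockout replicate 2, against 713, 631 and 599.8 CPM in the controls. The groups overlapped (log2 fold change 0.04, SE 0.10, edgeR adjusted p = 0.82). Copg2, which overlaps the end of Mest on the opposite strand, was at 82.9 CPM in knockout replicate 1 and 85.0 CPM in knockout replicate 2, against 96.5 to 107 CPM in the controls (edgeR adjusted p = 0.058). Ndn, the growth-restraining MAGE-family protein necdin, was at 59.7 CPM in knockout replicate 1 and 66.4 CPM in knockout replicate 2, against 59.5, 64.9 and 63.5 CPM in the controls. Peg3 and Ndn lie on chromosome 7 (6703892 to 6730431, minus strand, and 62346569 to 62350262, plus strand) and Mest on chromosome 6 (30723547 to 30748465, plus strand, GRCm38). The Ndn values overlapped throughout (log2 fold change 0.01, SE 0.088, edgeR adjusted p = 0.95).

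Other imprinted genes were counted from 2 lists. Of 21 further paternally read genes, 15 were tested, with a median log2 fold change of 0.23. In knockout lenses 2 were higher and 0 lower, against 7.98% and 8.51% of all genes tested. The called genes made up 13.3% of this list, near the 16.5% of all genes tested. At an unadjusted p under 0.05 edgeR had 5 higher and 1 lower of 15, against 18.2% and 17.6% of all genes. DESeq2 called 4 higher and 0 lower of 16, against 9.42% and 9.84% of all genes it tested. Peg13, a noncoding RNA, rose 1.45-fold, with 92.8 and 92.9 CPM in the knockouts, against 57.9 to 72.7 CPM in the controls (log2 fold change 0.54, SE 0.11, edgeR adjusted p = 0.021). Peg12, an intronless gene of the domain that holds Ndn, rose 2.06-fold at a low level, to 3.94 and 5.02 CPM, against 2.05 to 2.28 CPM in the controls (edgeR adjusted p = 0.037). Neither was called by edgeR without the trends on length and GC content (Peg13 0.34, adjusted p = 0.062, and Peg12 0.79, adjusted p = 0.096). Peg10, another retrotransposon-derived gene, was at 123 CPM in knockout replicate 1 and 62.0 CPM in knockout replicate 2, against 54.5 to 72.2 CPM in the controls, and did not pass (edgeR adjusted p = 0.14). Of 22 further maternally read genes, 13 were tested, with 0 higher and 1 lower and a median of 0.12. The called gene made up 7.69% of this list, against 16.5% of all genes tested (7.98% higher and 8.51% lower). At an unadjusted p under 0.05 the numbers were 2 and 1, and DESeq2 called 1 higher and 1 lower, beside the same shares of all genes. Ube3a, a ubiquitin ligase that is imprinted in neurons, fell 1.34-fold to 136 and 154 CPM, against 186 to 205 CPM in the controls (log2 fold change -0.42, SE 0.090, edgeR adjusted p = 0.026), and was not called without the trends on length and GC content (-0.16, adjusted p = 0.17). Cdkn1c, the cell-cycle inhibitor p57, was at 768 CPM in knockout replicate 1 and 786 CPM in knockout replicate 2, against 624, 765 and 751 CPM in the controls (edgeR adjusted p = 0.45).

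Among 19 tested genes that keep or alter imprints and DNA methylation, 2 were higher and 1 lower. The called genes made up 15.8% of the list, near the 16.5% of all genes tested (7.98% higher and 8.51% lower). Zfp57, a zinc-finger protein that protects imprints in the early embryo, rose 2.27-fold, with 16.7 CPM in knockout replicate 1 and 7.82 CPM in knockout replicate 2, against 5.01 to 5.72 CPM in the controls (edgeR adjusted p = 0.037). In log2 terms it stood at 0.54 (edgeR adjusted p = 0.25) without knockout replicate 1. Tet2, an enzyme that oxidises methylated cytosine, rose 1.23-fold (84.9 and 79.99 CPM, against 63.9 to 68.9 CPM, edgeR adjusted p = 0.043). Suz12, a subunit of Polycomb complex 2, fell 1.30-fold (84.9 and 104 CPM, against 116 to 132 CPM, edgeR adjusted p = 0.046). Without the trends on length and GC content edgeR called neither Tet2 (0.21, adjusted p = 0.084) nor Suz12 (-0.20, adjusted p = 0.16). Dnmt1, the maintenance DNA methyltransferase, had 173 and 181 CPM in the knockouts, against 146 to 167 CPM in the controls (edgeR adjusted p = 0.14). Ctcf, which insulates Igf2 from the enhancers on the maternal copy, was at 94.0 and 98.7 CPM, against 90.7 to 97.3 CPM in the controls (edgeR adjusted p = 0.75). In the fits without control replicate 2 or control replicate 3, edgeR called 0 genes of the growth factor, imprint maintenance and further imprinted lists. These fits called only 0.317% and 1.98% of all genes tested, so the absence of calls is not particular to the lists.

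The tested genes with the most similar profile to each of the 4 called genes were found by Euclidean distance between centred log2 (CPM + 1) values over the 5 libraries, as a description. They were Zfhx3, Adgrb2 and St3gal1 for Plagl1 (distances 0.12, 0.20 and 0.22). Zfhx3, a homeodomain zinc-finger protein, was at 109 CPM in knockout replicate 1 and 79.4 CPM in knockout replicate 2, against 40.8 to 47.0 CPM in the controls. For Igf2r they were Lace1, Susd2 and Gmip (0.05, 0.05 and 0.06). For Meg3 they were Nfatc4, Rnf144a and Tspan9 (0.09, 0.11 and 0.17), and Nfatc4, a calcineurin-regulated transcription factor, was at 47.3 CPM in knockout replicate 1 and 25.8 CPM in knockout replicate 2, against 17.9 to 20.3 CPM in the controls. For Dlk1 they were Tbx15, Nfix and Osr2 (0.38, 0.43 and 0.71), all of them transcription factors. Tbx15 was at 30.2 CPM in knockout replicate 1 and 1.08 CPM in knockout replicate 2, against 1.18, 1.37 and 1.52 CPM in the controls.

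**Figure D4:**
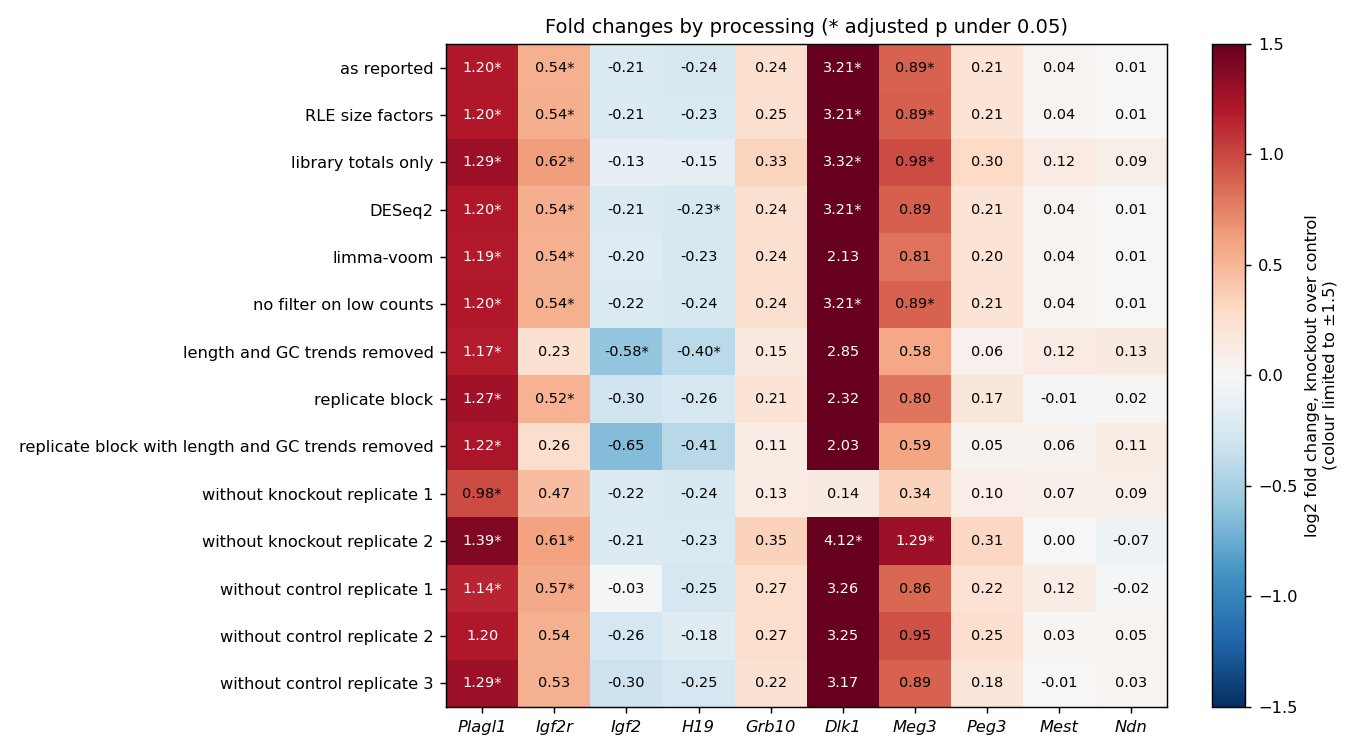
Log2 fold change of knockout over control (colour and numbers) for the 10 genes (columns) in the fit as reported and in 13 alternatives (rows). Asterisks mark an adjusted p under 0.05. Plagl1 passes in all but the fit without control replicate 2, and Dlk1 is at 0.14 without knockout replicate 1.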

How the data were processed

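RNA of embryonic day 14 mouse lenses was sequenced in 3 control and 2 N-myc knockout libraries, grouped by sample title. Raw counts were deposited by the authors as 1 table with a row for each gene symbol, per the file headers. The submitters' processing notes list, without saying what each did, TopHat2 2.0.13, Trim Galore 0.3.7, Cufflinks 2.2.1, HTSeq 0.6.1 and DESeq2, and the build mm10. The labels do not state the annotation or strand setting. Totals were 13162384 to 13746416 counts. Counts were tested in R 4.3.3 with edgeR 4.0.16 (filterByExpr with a minimum count of 10, TMM scaling, glmQLFit, glmQLFTest, no covariate; biological coefficient of variation 14.1%), with Benjamini-Hochberg adjustment over 12035 genes and a threshold of 0.05. CPM used TMM-scaled totals, and the SE was the log2 fold change over the root of the F statistic. The labels do not say how animals were divided over the pools, so p-values measure the spread between these libraries. Libraries of a group differed by more than sampling noise (chi-square over degrees of freedom 10.1 to 23.6). In each of 5 simulations for this comparison, 200 of 12035 genes were changed, 1.5-fold or 2-fold. edgeR recovered 30.2% of genes changed 1.5-fold and 68.6% of those changed 2-fold. Far fewer genes were changed than the 960 higher and 1024 lower called in the data, so these shares may not hold there. False calls, among the unchanged genes, averaged 12.4 per simulation.

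The alternatives were RLE size factors, library totals, DESeq2 1.42.0, limma-voom (limma 3.58.1), no filter on low counts, loess trends on transcript length and GC content removed (span 0.5, longest GENCODE vM21 transcript, 98.1% of tested genes), a replicate block with and without these trends, and leaving out each library. Positions came from GENCODE vM21 and promoters from RefSeq (GRCm38.p6), both on the build of mm10. The members and lists were chosen with earlier results of these data known. Named genes were the 10 members, Mycn, up to 4 called genes of each of 4 lists by smallest adjusted p, and the 3 most similar genes (mean of at least 5 CPM) of each member, given here for the 4 called members. Igf1, Peg10, Cdkn1c, Dnmt1, Ctcf, Rian, Mirg and Rtl1 were added after their values were seen, and Airn, Igf2os and Copg2 because they overlap a member.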

Additional observations from a re-analysis of the deposited data

How the results depend on the processing

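Of the 10 genes, the number called higher was 4, and 2 with limma-voom, 1 without the trends on length and GC content, and 0 to 4 when 1 library was left out (0 without control replicate 2). The number called lower was 0, 1 with DESeq2 (H19) and 2 with the trends removed (H19 and Igf2). Over all genes, 960 were higher and 1024 lower, 1511 and 637 with library totals, 354 and 896 with the trends removed, and 21 to 1426 higher and 17 to 1291 lower when 1 library was left out (21 and 17 when it was control replicate 2, 132 and 105 for control replicate 3, 179 and 113 for knockout replicate 1).

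The replicate numbers of knockouts and controls are only names in the labels. The deviations of same-numbered libraries from their group means had correlations of -0.07 and 0.04 over 12035 genes, and control replicate 3 had no partner. With the replicate block 473 genes were higher and 522 lower, and with the replicate block and the trends removed 211 and 339. Of the 10 genes 2 were higher with the replicate block and 1 with the replicate block and the trends removed. With these 2 blocked fits, the further paternally read list had 1 and 1 higher and the maternally read list 0 and 0 lower. The growth factor list had 1 higher and 1 lower with the block, and 0 higher and 4 lower with block and trends. The imprint maintenance list had 0 and 1 higher and 0 and 0 lower.

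In the further paternally read list 4 were higher with DESeq2 and 1 with the trends removed (Airn, with Peg13 and Peg12 no longer called). In the maternally read list 1 was higher with library totals and 1 with DESeq2, and 2 were lower with the trends removed, neither of them Ube3a. In the growth factor list 6 were higher and 1 lower with library totals, 5 and 7 with DESeq2, and 0 and 5 with the trends removed, where Shc1 was called and Irs2, Lin28b and Hmga2 were not. In the imprint maintenance list 0 were higher with limma-voom, 1 higher and 0 lower with the trends removed, and 0 lower with library totals. With 1 library left out, these 4 lists had 0 to 4, 0 to 5, 0 to 6 and 0 to 3 higher, and 0, 0 to 1, 0 to 3 and 0 to 1 lower. The cause of these differences was not tested.

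The sign turned for 6 genes. Mest was at -0.013 with the replicate block and between -0.0056 and 0.12 when 1 library was left out, and Ndn between -0.071 and 0.085. Igf2os was at -0.13 with the trends removed and -0.24 with block and trends. Rtl1, Rian and Igf1 were at -0.40, -0.060 and -0.062 without knockout replicate 1, and reached 4.10, 0.87 and 2.92 when another library was left out. Depth limits low genes such as Rtl1 (2 to 10 counts in the controls).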
